A study of Mus musculus with 5 samples.

Results

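The GIMAP genes (GTPases of the immunity-associated protein family) of the mouse number 8 here, Gimap1, Gimap3, Gimap4, Gimap5, Gimap6, Gimap7, Gimap8 and Gimap9. They were taken by symbol, each with the probe set (the group of array probes summarised as 1 value) that carried that single symbol, and were 8 of 19937 genes measured. Each member had 1 such probe set, so no choice between probe sets arose. RNA came from CD45+CD3+CD4+CD44low cells, T cells sorted from the connective tissue under the colon epithelium (lamina propria) of mice, and was hybridised to 5 arrays. Of these, 3 were from conditional mice (CD4cre/Cnb1flox), which carry floxed Cnb1, the gene for the calcineurin B subunit (symbol Ppp3r1), and Cre driven by CD4. The other 2 were from control mice, which the labels call both WT and CD4neg/Cnb1flox. The second name is read here as the same floxed gene without Cre. No group was treated. CD4-driven Cre acts during T cell development and also reaches cells of the CD8 lineage. The labels give neither the age of the mice nor, for an array, how many animals its RNA came from, so p-values measure only how far these arrays spread, a spread that may be technical. The study asked what the loss of calcineurin B changes in CD4 T cells of the gut.

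GIMAP proteins are GTP-binding proteins found mainly in lymphocytes, where several of them are anchored in the membranes of intracellular organelles. They are known for keeping mature T and B cells alive. Mice and rats that lack Gimap5 lose peripheral T cells, and the mice develop colitis. The genes stand side by side on chromosome 6: in the RefSeq gene table (assembly GRCm38.p6) the order is Gimap8, Gimap9, Gimap4, Gimap6, Gimap7, Gimap1, Gimap5 and Gimap3, and no other protein-coding gene lies between the first and the last.

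Some facts of the whole series bear on every value below. The median log2 RMA signal of an array was 7.12 to 7.23, and precision is limited by how few arrays there are. The targeted gene Ppp3r1 was read at 8.64, 8.83 and 8.77 in conditional replicates 1, 2 and 3 and at 8.99 and 8.60 in control replicates 1 and 2, a difference of -0.05 ± 0.159 (SE, limma, adjusted p = 0.927), and its probe set may lie outside the deleted part, in which case it checks nothing. The sorted cell type was checked with 13 measured genes of T cell identity. Their mean level was between 10.88 and 11.13 on the conditional arrays and 11.30 in control replicate 2, but 8.64 in control replicate 1. In bulk RNA, fewer T cells and less of these transcripts per T cell cannot be told apart. Means of 8 colon epithelial and 8 stromal genes were highest in control replicate 1, at 9.71 and 11.77, against 8.32 and 10.04 in control replicate 2 and ranges of 7.15 to 7.79 and 8.76 to 9.95 in conditional cells. For this reason each control array is shown by itself throughout.

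All 8 GIMAP genes had their lowest reading in control replicate 1, and conditional cells differed from control replicate 2 by -0.41 to 0.45 in all members but Gimap9, which was at -1.12. Averaged over the family, the log2 signal was 9.78, 10.04 and 9.96 on the 3 conditional arrays, 7.81 in control replicate 1 and 10.06 in control replicate 2. The members were 1.47 to 2.78 higher in control replicate 2 than in control replicate 1, with a median of 2.27, while each member's 3 conditional values spanned only 0.096 to 0.473. The gap between the control arrays was therefore several times the spread among conditional arrays for each gene.

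**Figure D1:**
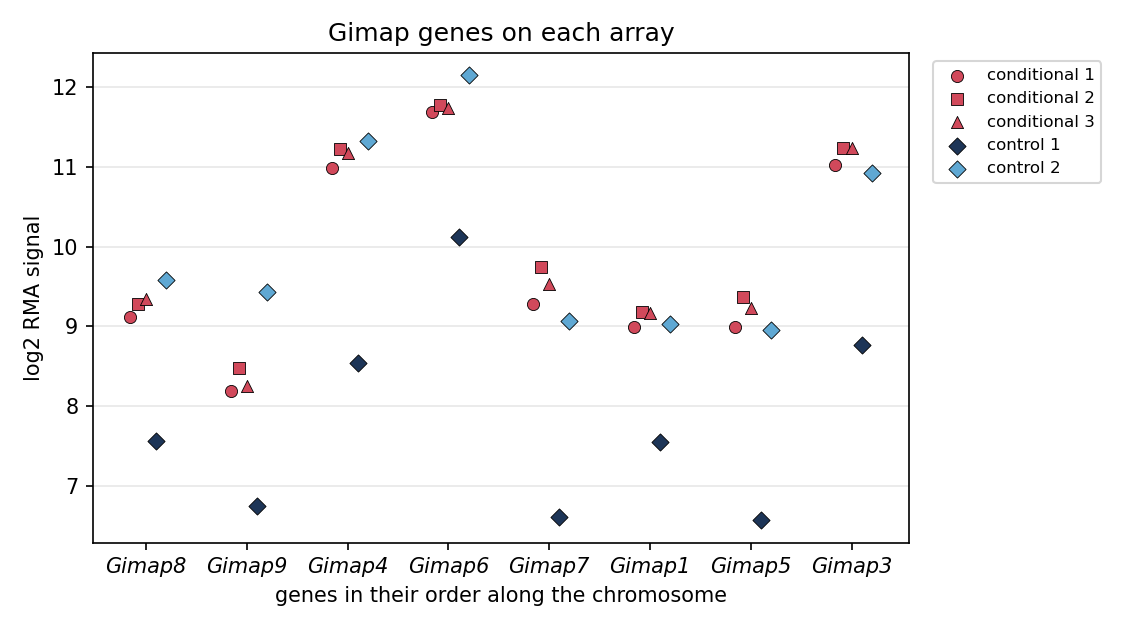
The log2 RMA signal of the 8 GIMAP genes is plotted with a point for each array, red for the 3 conditional arrays and blue for the 2 control arrays. For each gene the dark diamond of control replicate 1 is lowest, 7.81 in the family mean against 10.06 in control replicate 2, and control replicate 2 stands clear above the conditional points for Gimap9, at 9.43 against at most 8.48.

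Against both controls together, the family median difference (conditional minus control) was 1.01 on the log2 scale, beside 0.03 for all genes, and 0 of 8 members passed an adjusted p of 0.05 in limma (0 at an unadjusted p of 0.05 as well). Over all genes 0.416% passed, and 2892 of 19937 had an unadjusted p under 0.05. Differences ran from 0.22 for Gimap9 to 1.67 for Gimap7, with standard errors of 0.436 to 0.804 and adjusted p between 0.384 and 0.936. For Gimap3, Gimap5 and Gimap7 all 3 conditional values lay above both controls. Over all genes 17.4% were apart in that direction.

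Gimap5, required for the survival of peripheral T cells, was read at 9.00, 9.37 and 9.24 in conditional cells, at 6.57 in control replicate 1 and at 8.95 in control replicate 2. The conditional values were above both controls, but the lowest cleared control replicate 2 by only 0.044. The difference was 1.44 ± 0.696 (SE, limma, adjusted p = 0.433; 95% confidence interval -0.34 to 3.22).

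Gimap3, the close relative of Gimap5 with a role in the same survival function, stood at 11.02, 11.24 and 11.24 in conditional cells, 8.77 in control replicate 1 and 10.93 in control replicate 2. The groups did not overlap, with a gap of 0.091 to control replicate 2. The difference was 1.32 ± 0.628 (SE, limma, adjusted p = 0.427). These paralogs resemble each other in sequence and their probe sets may share signal.

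Gimap7, a GTPase that pairs with copies of itself and with another GIMAP protein to hydrolyse GTP, was at 9.28, 9.75 and 9.53 in conditional cells, 6.62 in control replicate 1 and 9.07 in control replicate 2. It had the widest gap between the groups, 0.210, and the greatest difference of the family, 1.67 ± 0.719 (SE, limma, adjusted p = 0.384). Its interval, from -0.16 to 3.51, still included 0.

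Gimap4, which speeds the death of T cells, was at 10.98, 11.22 and 11.17 in conditional cells, 8.55 in control replicate 1 and 11.33 in control replicate 2. All conditional values lay between the controls. The difference was 1.19 ± 0.804 (SE, limma, adjusted p = 0.567), the least precise of the family.

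Gimap1, needed for the development and upkeep of mature B and T cells, was at 9.00, 9.18 and 9.17 in conditional cells, 7.56 in control replicate 1 and 9.03 in control replicate 2. Control replicate 2 lay within the conditional range. The difference was 0.82 ± 0.436 (SE, limma, adjusted p = 0.468).

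Gimap6, which binds a member of the ATG8 family of autophagy proteins, was at 11.68, 11.78 and 11.74 in conditional cells, 10.12 in control replicate 1 and 12.15 in control replicate 2. Gimap8, the longest of the proteins, with several GTP-binding domains, was at 9.12, 9.28 and 9.34 in conditional cells, 7.56 in control replicate 1 and 9.58 in control replicate 2. For both genes the conditional arrays lay between the controls, below control replicate 2. Their differences were 0.60 ± 0.590 and 0.68 ± 0.589 (SE, limma, adjusted p = 0.716 and 0.672).

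Gimap9 departed most from the others. It was read at 8.19, 8.48 and 8.25 in conditional cells, 6.75 in control replicate 1 and 9.43 in control replicate 2. The conditional arrays thus lay well below control replicate 2 and well above control replicate 1, and the difference from both was 0.22 ± 0.777 (SE, limma, adjusted p = 0.936).

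Set against each control alone, the family gave opposite pictures. In these fits the lone control is assumed to vary like the conditional arrays, whereas the control arrays differed from each other by far more, so their p-values are too small. Against control replicate 1 all 8 members were higher, by 1.56 (Gimap1 and Gimap9) to 2.90 (Gimap7), that is 2.95-fold to 7.45-fold, with a median of 2.04 beside 0.09 for all genes. All 8 passed (limma, adjusted p from 0.00115 to 0.00221), where 11.0% of all genes were called higher and 44.7% had all 3 conditional values above that array. T cell identity genes did the same: 13 of 13 passed as higher, with a median of 2.31, and Cd3e, a chain of the T cell receptor complex, differed by 2.28. The part of T cell content in the difference of the GIMAP genes was not tested.

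Against control replicate 2 the family median was -0.057, beside -0.02 for all genes, and the members divided. Gimap7 (0.45), Gimap5 (0.25) and Gimap3 (0.24) had all conditional values above that array, where 28.2% of all genes did, and Gimap1 (0.09) straddled it. Gimap9 (-1.12), Gimap6 (-0.41), Gimap8 (-0.33) and Gimap4 (-0.20) had all of theirs below it, where 31.2% did. Gimap9 was the 1 member that passed, at -1.12 with a 95% confidence interval from -1.51 to -0.73 (limma, adjusted p = 0.0187). Over all genes 2.77% were called lower. The other 7 had adjusted p from 0.123 for Gimap6 to 0.882 for Gimap1. The same comparisons for T cell identity genes gave a median of -0.30, with 3 of 13 called lower, Cd247, Lat and Bcl11b, and 0 called higher.

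**Figure D2:**
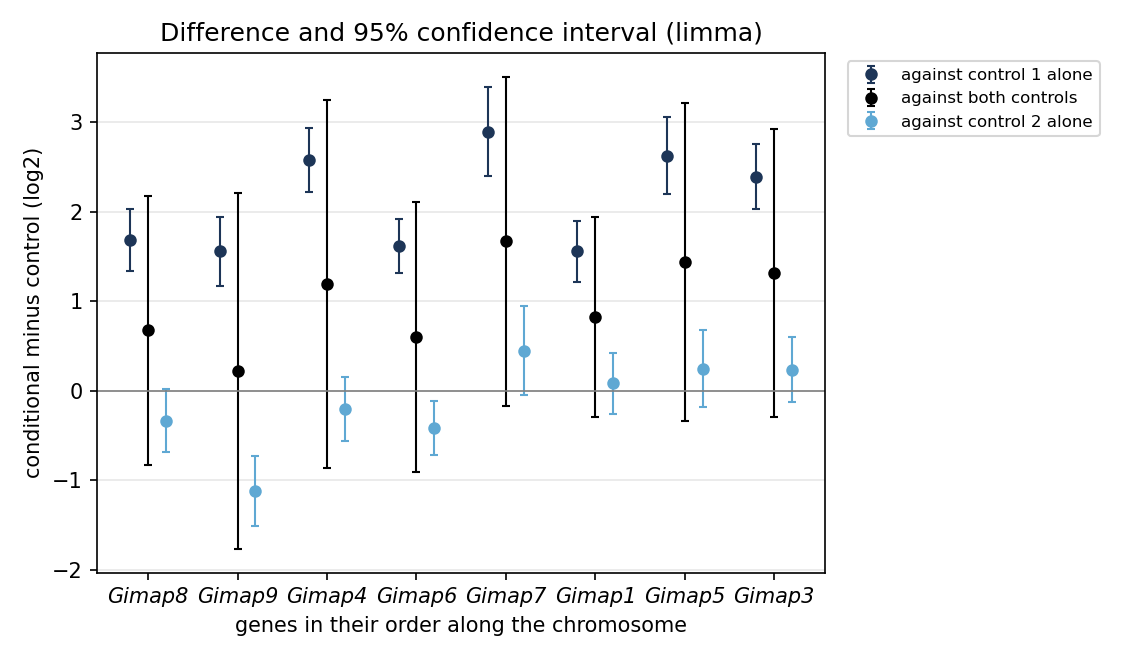
The difference between conditional and control arrays (log2) with its 95% confidence interval from limma is plotted for each GIMAP gene against control replicate 1 alone, both controls, and control replicate 2 alone. Intervals against both controls include 0 for all 8 genes, the dark points against control replicate 1 lie between 1.56 and 2.90, and the light points against control replicate 2 lie between -1.12 and 0.45.

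Because the whole family was low in control replicate 1, each member was also set against the mean of the 8 genes on its own array, which removes a change shared by all of them. This measure was chosen after the values were seen, the 8 relative values on an array sum to 0 and so are not separate, and no test was made of it; with 3 and 2 arrays a permutation test could not go below 0.1. It shows unequal change within the family and not which gene moved.

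On this scale 3 members were higher in conditional cells than in both controls, 3 were lower than in both, and 2 overlapped. The scale is defined for the family alone, so no share over all genes can be set beside these counts. Because the relative values sum to 0, differences in both directions are built in. Gimap7 was at -0.51, -0.29 and -0.43 relative to the family mean in conditional cells and at -1.19 and -0.99 in control replicates 1 and 2. All conditional values of Gimap7 were higher than both controls by at least 0.484. Gimap5 was at -0.79, -0.67 and -0.72 against -1.24 and -1.10, and Gimap3 at 1.24, 1.20 and 1.28 against 0.96 and 0.87. These 3 genes thus stood higher within the family in conditional cells whichever control was used.

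Gimap9 went the other way, at -1.59, -1.56 and -1.71 in conditional cells against -1.06 and -0.63 in the controls. Gimap6 was at 1.90, 1.74 and 1.78 against 2.30 and 2.09, and Gimap8 at -0.66, -0.76 and -0.62 against -0.25 and -0.48. All conditional values of these 3 genes were below both controls, by at least 0.495 for Gimap9, 0.191 for Gimap6 and 0.141 for Gimap8. Gimap4 and Gimap1 changed sides with the control: relative to the family mean, Gimap4 differed from control replicate 1 by 0.46 and from control replicate 2 by -0.071, and Gimap1 by -0.56 and 0.22.

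**Figure D3:**
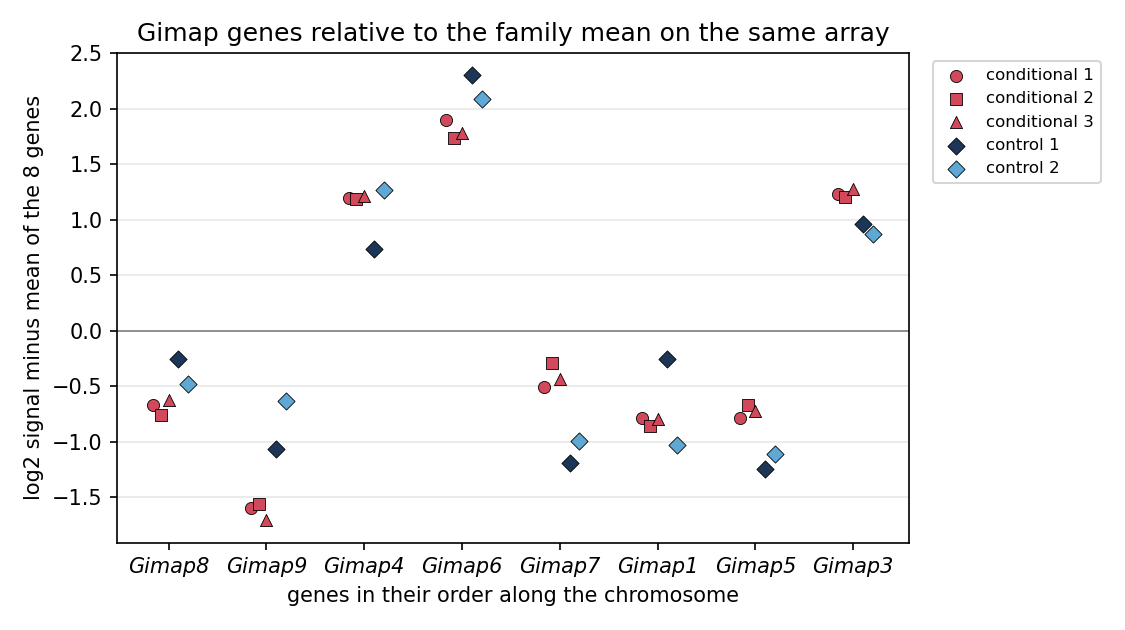
Each point is the log2 signal of a GIMAP gene minus the mean of all 8 on the same array, with red for conditional and blue for control arrays. Red points lie above both blue points for Gimap7, Gimap5 and Gimap3 and below both for Gimap9, Gimap6 and Gimap8.

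The profiles of the members over the 5 arrays were compared in pairs by the root mean square of the difference between their centred values, as a description. Gimap6 and Gimap8 were the most alike, at 0.063, followed by Gimap3 and Gimap5 at 0.108 and Gimap5 and Gimap7 at 0.122. The least alike were Gimap7 and Gimap9, at 0.719. Within the conditional group the family kept a common order too: conditional replicate 1 was the lowest of the 3 for all 8 members, and conditional replicate 2 the highest for 6. A low reading in conditional replicate 1 was not particular to the family. The mean of the T cell identity genes was also lowest there, at 10.88, against 10.95 and 11.13 in conditional replicates 2 and 3. Means of the stromal and colon epithelial genes were highest there, at 9.95 and 7.79.

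The division against control replicate 2 followed the order of the genes. Gimap8, Gimap9, Gimap4 and Gimap6, the first 4 of the row, were below that control, and Gimap7, Gimap1, Gimap5 and Gimap3, the last 4, were at or above it. Against control replicate 1 the values of the first 4 and the last 4 overlapped. This arrangement was noticed in the values and was not tested.

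Most listed genes on either side of the cluster did not share its readings. Lrrc61 was an exception, at 8.42 to 8.59 in conditional cells, 7.87 in control replicate 1 and 9.28 in control replicate 2. Its conditional values lay between the controls, as those of Gimap6, Gimap8 and Gimap9 did. Of 9 neighbouring genes on chromosome 6 in a list of nearby genes, 1, Lrrc61, was called higher against control replicate 1 and 5 were called lower (limma, 16.5% of all genes called lower), with a median of -1.11. Directly after Gimap3, Tmem176b and Tmem176a, membrane protein genes of myeloid cells and some T helper subsets, had conditional values between the controls, but the other way up. Tmem176b was at 11.44 to 11.65 in conditional cells, 12.67 in control replicate 1 and 10.69 in control replicate 2. Tmem176a differed by -1.15 from control replicate 1 and by 0.98 from control replicate 2. On the other side, Zfp775, the listed gene nearest to Gimap8, differed by 0.15 and 0.07. Aoc1, an amine oxidase gene of the gut epithelium, was at 5.82 to 6.26 in conditional cells, 8.37 in control replicate 1 and 6.37 in control replicate 2, and did not pass against both (adjusted p = 0.410).

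**Figure D4:**
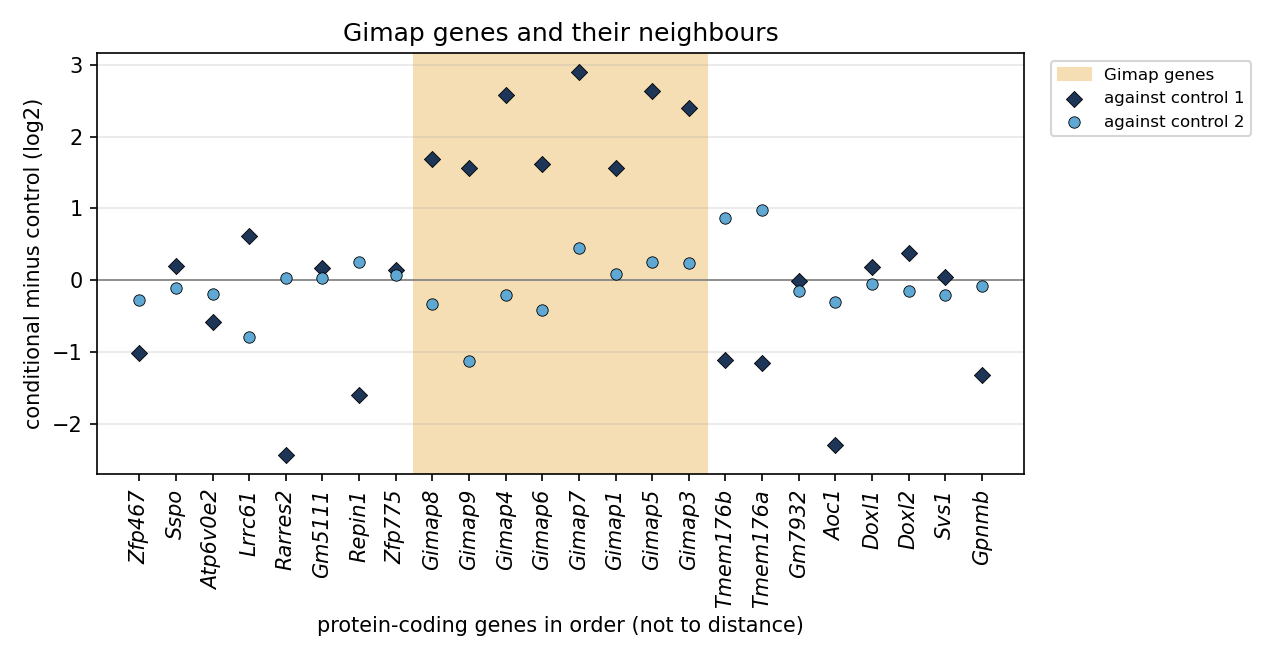
Protein-coding genes are plotted in their order along chromosome 6, not to distance, with the log2 difference of conditional cells from control replicate 1 (diamonds) and control replicate 2 (circles). Within the shaded run of 8 GIMAP genes each diamond lies at 1.56 or above, while the adjoining Tmem176b and Tmem176a have diamonds at -1.11 and -1.15.

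For the 2 members whose relative signal in conditional cells was farthest above the controls (Gimap7 and Gimap5) and the 2 farthest below (Gimap9 and Gimap6), the 250 bases before the annotated start are shown, so that the starts of genes that moved apart within a cluster can be compared. RefSeq's table (build GRCm38.p6) held promoter sequences for all 8 members, 9 in all because Gimap8 has 2 starts. The genome build behind the array is not given in the sources used here. Capitals mark matches on either strand to GGAAA (the core of NFAT sites), TGTGGT (RUNX), CCGGAAG and AGGAAG (ETS) and TATAAA, each listed 5′ to 3′ on the gene's own strand.
Gimap7, chr6:48718371-48718620, plus strand: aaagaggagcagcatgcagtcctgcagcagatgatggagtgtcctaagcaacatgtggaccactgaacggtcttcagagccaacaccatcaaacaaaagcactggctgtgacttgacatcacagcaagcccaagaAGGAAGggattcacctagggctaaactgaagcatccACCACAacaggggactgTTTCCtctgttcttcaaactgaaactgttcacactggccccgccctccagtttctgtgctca
Gimap5, chr6:48745947-48746196, plus strand: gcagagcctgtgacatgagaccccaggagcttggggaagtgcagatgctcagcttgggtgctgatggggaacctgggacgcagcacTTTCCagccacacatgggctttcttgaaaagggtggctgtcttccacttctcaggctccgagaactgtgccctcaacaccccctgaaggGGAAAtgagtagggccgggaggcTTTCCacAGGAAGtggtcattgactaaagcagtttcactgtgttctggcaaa
Gimap9, chr6:48675885-48676134, plus strand: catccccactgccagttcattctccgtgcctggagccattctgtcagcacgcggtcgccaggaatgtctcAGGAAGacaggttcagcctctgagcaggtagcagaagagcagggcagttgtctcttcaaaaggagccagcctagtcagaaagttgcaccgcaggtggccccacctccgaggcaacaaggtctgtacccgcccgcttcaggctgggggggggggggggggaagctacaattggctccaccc
Gimap6, chr6:48708245-48708494, minus strand: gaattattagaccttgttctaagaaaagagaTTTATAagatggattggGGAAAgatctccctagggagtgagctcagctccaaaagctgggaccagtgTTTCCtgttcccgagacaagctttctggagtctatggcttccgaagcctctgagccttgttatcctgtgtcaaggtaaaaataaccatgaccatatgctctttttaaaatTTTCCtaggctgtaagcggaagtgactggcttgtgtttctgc

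NFAT factors are the best-known substrates of calcineurin. The GGAAA core was found in 7 of the 9 member promoters and in 55.6% of 32851 promoters of the same length. Gimap5 and Gimap6 had 3 matches each, Gimap7 had 1, and these letters were not in the window of Gimap9. AGGAAG was present in 7 of 9 member promoters and in 29.5% of all promoters, TGTGGT in 3 of 9 (Gimap1, Gimap4 and Gimap7) and in 14.0%, TATAAA in 1 of 9 (Gimap6) and in 12.4%, and CCGGAAG in 0 of 9 and in 6.91%. GGAAA and AGGAAG share letters but no matches of these motifs overlapped in the sequences shown. A match describes the letters only. Gimap5, relatively higher in conditional cells, and Gimap6, relatively lower, had equal numbers of the NFAT core.

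Proteins reported to bind GIMAP family members or to act with them were measured for 7 of 8 listed genes. Against both controls 0 passed in limma (4 at an unadjusted p of 0.05, as did 2892 of all 19937 genes), and their median difference was 0.17. Bcl2l1, which encodes the survival protein BCL-XL, was at 8.78 to 8.93 in conditional cells and at 7.85 and 8.05 in control replicates 1 and 2, a difference of 0.92 (limma, adjusted p = 0.0672). Bcl2, the founding survival gene of that family, was at 9.73 to 9.86 in conditional cells, 9.95 in control replicate 1 and 11.08 in control replicate 2, a difference of -0.70 (adjusted p = 0.433). Bcl2l11, which encodes the death-promoting protein BIM, differed by 0.58 and Bak1, a pore-forming death effector gene, by 0.62, with adjusted p of 0.115 and 0.217. Mcl1 was at 10.92 to 11.07 in conditional cells, 11.28 in control replicate 1 and 11.49 in control replicate 2. Its difference was -0.38 (limma, adjusted p = 0.266). Of the 7 genes, 4 had all conditional values above both controls and 2 had all of them below both. Over all genes 17.4% and 13.1% were apart in these directions, and 30.5% in either. Gabarapl2, the ATG8 partner of Gimap6, was at 11.16 to 11.26 in conditional cells and 11.03 and 11.06 in the controls.

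The GIMAP genes are known to be abundant in naive and resting lymphocytes, so markers of that state were set beside them. Of 10 measured genes 0 passed against both controls in limma (1 at an unadjusted p of 0.05), and the median difference was -0.07. Against control replicate 2, 4 were called lower and 1 higher, beside 2.77% and 3.34% of all genes. Dapl1, a marker of naive T cells, was at 5.88 to 6.16 in conditional cells, 6.29 in control replicate 1 and 11.64 in control replicate 2. Klf2, a transcription factor gene of quiescent T cells, was at 9.18 to 9.25, 9.35 and 11.27, and Lef1, a factor of naive T cells, was at 9.03 to 9.62, 8.41 and 11.50. Il7r, the interleukin-7 receptor chain of resting and memory T cells, was instead at 12.30 to 12.53 in conditional cells, 9.36 in control replicate 1 and 11.49 in control replicate 2, and the groups did not overlap. Control replicate 2 was thus high in Dapl1, Klf2 and Lef1 but not in all markers of this state. Conditional cells differed from it by -0.02 in Ccr7 and 0.13 in Bach2. Of the 10 genes, 6 had all conditional values below control replicate 2, where 31.2% of all genes did. The GIMAP genes differed from it by -1.12 (Gimap9) to 0.45 (Gimap7). The part of naive cells in these readings was not tested. A list of 12 regulators of lymphocyte survival, development and migration, among them Foxo1, which sustains naive T cells, Notch1 and Ptprc (CD45), had medians of 1.57 against control replicate 1 and -0.42 against control replicate 2, and 0 passed against both (limma, 0 at an unadjusted p of 0.05).

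Other lymphocytes and vessel cells also carry GIMAP transcripts. Of 7 measured B cell genes, 4 had all conditional values below both controls, where 13.1% of all genes were apart in that direction. Their median difference was -0.62, and 0 passed in limma (3 at an unadjusted p of 0.05, as did 2892 of all 19937 genes). The mean of the B cell genes was 8.01 to 8.39 in conditional cells, 8.67 in control replicate 1 and 9.29 in control replicate 2. The median difference was 0.06 over 6 genes of natural killer and innate lymphoid cells. Ncr1, Klrb1c, Klra8 and Klre1 read between 4.05 and 5.99, below the median of every array, so that median difference says little about such cells. Eomes was at 7.91 to 8.82 in conditional cells, 7.02 in control replicate 1 and 9.60 in control replicate 2. Of the 6 genes Tyrobp, a signalling adaptor gene also active in myeloid cells, was the 1 called higher, by 1.88 (limma, adjusted p = 0.0269), where 0.371% of all genes were called higher. Of 8 endothelial genes 0 passed against both controls in limma (1 at an unadjusted p of 0.05). Cdh5, which encodes the junction protein of vessel walls, was at 7.89 to 9.09 in conditional cells. It was at 9.43 in control replicate 1 and 6.47 in control replicate 2, the reverse of the GIMAP order of the controls. Pecam1, the first listed, had the GIMAP order, at 9.40 to 9.86 in conditional cells, 8.65 in control replicate 1 and 9.73 in control replicate 2. Of the 8 genes, 1 had all conditional values above control replicate 1 and 6 had all below it. Over all genes 44.7% were above that array and 6107 of 19937 were below it. Of 7 macrophage and dendritic genes 4 had conditional values above both controls, where 17.4% of all genes did, with a median difference of 0.76. In limma 0 passed (4 at an unadjusted p of 0.05, as did 2892 of all 19937 genes). The part of these cell types in the GIMAP readings was not tested.

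**Figure D5:**
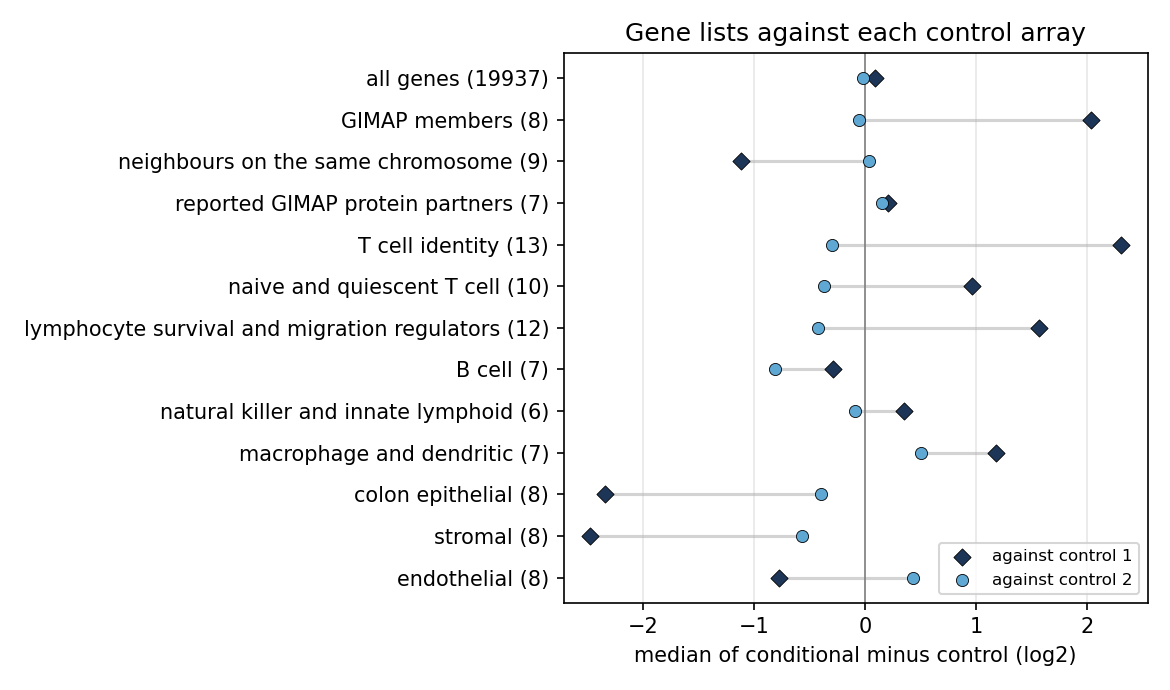
The median log2 difference of conditional cells from control replicate 1 (diamonds) and control replicate 2 (circles) is plotted for each gene list, with the number of genes measured in brackets. The GIMAP genes run from 2.04 to -0.057 and T cell identity genes from 2.31 to -0.30, whereas epithelial and stromal genes lie at -2.34 and -2.48 against control replicate 1.

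The 8 genes outside the family whose centred profile over the 5 arrays was most like the family's mean profile, by root mean square difference, were Gm8995 (0.068), Fam169b (0.070), Grap2 (0.074), Cd28 (0.079), Dock2 (0.083), Cd52 (0.094), Klk8 (0.104) and Coro1a (0.108). They include Grap2, an adaptor of T cell receptor signalling, Cd28, the costimulatory receptor of T cells, Dock2 and Coro1a, cytoskeletal regulators of lymphocyte migration, and Cd52, a surface glycoprotein gene of lymphocytes. Coro1a was at 10.84 to 11.13 in conditional cells, 8.88 in control replicate 1 and 11.31 in control replicate 2. Cd28 differed from control replicate 1 by 2.03 and from control replicate 2 by -0.09, near the family medians of 2.04 and -0.057. The likeness rests on 5 arrays and on the low reading of control replicate 1.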

How the data were processed

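Gene expression was measured with Affymetrix arrays in 5 samples, grouped by the genotype labels with replicate numbers from the titles. The deposited values are log2 signals made by the authors, for which the submitters' processing notes name RMA and oligo. Versions of both and the genome build: not given in the sources used here. RMA corrects background, normalizes arrays together and summarises probes, which removes global shifts and compresses the differences of dim genes. There is no read depth and no call against background. No 2 arrays held identical values.

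Of 34760 probe sets, 21640 had 1 gene symbol in the platform's older annotation, 1321 several and 11799 none. Each of 19937 genes took its probe set with the highest mean. All 8 member symbols matched RefSeq by gene number, and 0 members lay below the median level of all genes, so no filter on dim genes removed any. Groups were compared with limma 3.58.1 in R 4.3.3 (lmFit, eBayes, no covariate; 3 residual and 2.10 prior degrees of freedom), with Benjamini-Hochberg adjustment over all genes and a threshold of 0.05. Comparisons with each control alone are the same fit without the other control. Members and gene lists were chosen with earlier results of these data known. Named genes are the 8 members, up to 6 genes of each list by order or smallest p, and the 8 most alike in profile. Tmem176a and Tmem176b, which adjoin Gimap3, were named outside that rule. Of the 10 genes listed as neighbours, Kcnh2 lies on another chromosome and was left out of that count. The fit of conditional against control arrays was tested on 20 simulated runs of 19937 genes, 200 of them changed, and found 23.1% of changes of 1 on the log2 scale, 77.4% of 2 and 94.0% of 4. Alternatives were other normalizations, filters, probe set choices, variance models, array weights, the replicate block, each array left out and another threshold.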

Additional observations from a re-analysis of the deposited data

How the results depend on the processing

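The family's result turned on the control arrays. Leaving out each array in turn gave a median member difference between -0.057 (without control replicate 1) and 2.04 (without control replicate 2), between 0 and 8 members past the threshold and between 0 and 5474 genes past it over all genes; without control replicate 1 there were 1217 genes and 1 member, Gimap9. Across these fits Gimap4 ranged from -0.20 to 2.58, Gimap6 from -0.41 to 1.62, Gimap8 from -0.33 to 1.69 and Gimap9 from -1.12 to 1.56, each reversed without control replicate 1. Relative to the family mean, Gimap1 ranged from -0.56 to 0.22 and Gimap4 from -0.071 to 0.46. The other 6 members kept their direction with each array left out. That outcome was fixed beforehand, since their conditional and control values did not overlap on this scale. They also kept it after another quantile normalization. Of 128 member values under alternatives, 116 kept direction and side of the threshold, 8 passed it (all without control replicate 2) and 4 reversed. Filters, probe set choices, variance models and the other threshold left the member differences as they were. Under those settings only the side of the threshold could change, so the 116 is not a measure of stable direction. Array weights gave 13 genes past the threshold and an adjusted p of 0.1 gave 374, with 0 members in both. Leaving out any 1 conditional array gave 0 genes (limma, 1417 to 2037 at an unadjusted p of 0.05). With the replicate block 69 genes and 0 members passed and the median member difference was 0.98; equal numbers are not said to mark a shared experiment, and deviations of same-numbered arrays correlated at 0.40 and -0.29. Gimap3, Gimap5 and Gimap7 stayed above both controls after either renormalization, Gimap5 by as little as 0.020. With 5 arrays and such a gap between controls, the precision does not allow a difference of about 1 in these genes to be told from 0.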
